A study of Mus musculus with 8 samples.

Results

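Glycosyltransferases and carbohydrate sulfotransferases of the Golgi were examined in SV-LECs, a mouse lymphatic endothelial line, with and without TGFβ1. The genes were taken by symbol, as numbered members of the Galnt, B3galt, B3gnt, B4galt, Mgat, Fut, St3gal, St6gal, St6galnac, Chst, Ndst, Hs3st and Hs6st families. This gave 101 of the 55471 genes in the count table. SV-LECs derive from mesenteric adventitial tissue and were immortalized with SV40, which both groups share, so the results rest on 1 line. One group received no treatment and the other was cultured with TGFβ1 at 10 ng/ml during 72 h. Each group gave 4 samples, 8 in all, from which stranded libraries of poly(A) RNA were sequenced. The study's methods call the 4 samples of a group technical replicates, so errors and p-values cover the variation between these libraries and not that between independent experiments. RNA was measured, and enzyme activity and glycans were not.

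Most secreted and membrane proteins are glycosylated in the Golgi by transferases that each add 1 kind of sugar in 1 linkage. Many but not all Galnt enzymes place the first N-acetylgalactosamine of mucin-type O-glycans, and Mgat enzymes set the number of branches on N-glycans. B3gnt, B3galt and B4galt enzymes build and extend the outer chains, and fucosyl- and sialyltransferases cap them. Chst, Ndst, Hs3st and Hs6st enzymes add sulfate, mainly to chondroitin, dermatan, keratan and heparan sulfate chains. On endothelium, heparan sulfate holds chemokines and growth factors, and sialylated, fucosylated and sulfated glycans serve as ligands for selectins and galectins.

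Total counts were between 18952504 and 26386941 per library, and the 101 genes took 0.281% to 0.286% of counts in untreated and 0.334% to 0.348% in TGFβ1-treated libraries. Levels are given as CPM, read counts relative to the TMM-normalized library size, and 3 counts in a library corresponded to 0.113 to 0.162 CPM. Of 10 TGFβ response genes listed, 9 were tested and all 9 were higher after TGFβ1. The lymphatic markers Pdpn, Flt4 and Nrp2 were present at means of 342, 21.6 and 66.4 CPM in untreated libraries. The other 5 of the 8 lymphatic markers were not tested, with 0 counts of Ccl21a in every library and at most 2 of Prox1, 2 of Reln, 3 of Lyve1 and 15 of Mmrn1. Of 10 endothelial markers 3 were tested, with Kdr at 11.6 CPM in untreated and 22.1 in treated cells (higher), Egfl7 at 5.83 and 4.79 (lower) and Tek at 0.659 and 0.569 (not called). The other 7 were at or near 0, with 0 counts of Tie1 and Erg in every library and at most 10 of Vwf, 5 of Pecam1, 2 of Cdh5 and 1 each of Emcn and Cldn5. Of 6 epithelial markers 3 were tested, and Krt14 was at 37.1 CPM in untreated and 38.8 in treated cells (not called). Krt8 and Krt18 were higher after TGFβ1, from 0.273 to 1.11 and from 0.226 to 1.24 CPM. Of 6 leukocyte markers only Csf1r was tested, and it was higher, from 0.278 to 1.38 CPM. Of 7 fibroblast and mural markers 5 were tested. Dcn and Pdgfra were lower after TGFβ1, from 312 to 83.0 and from 160 to 57.8 CPM, while Acta2, Pdgfrb and Cspg4 were higher, from 264 to 981, from 44.7 to 69.3 and from 12.8 to 23.0 CPM. The list summed to 772 to 830 CPM in untreated and 1180 to 1260 in TGFβ1-treated libraries. Without Acta2, which is also among the TGFβ response genes, it summed to 510 to 553 and 221 to 252 CPM. The part of these markers in the results was not tested. In RNA of whole cultures, a change in the share of cells that express a gene cannot be told apart from a change in the RNA per cell.

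After removal of genes with low counts, 58 of the 101 genes were tested, among 13818 genes in all. Genes were called at an FDR (Benjamini-Hochberg) under 0.05 in the likelihood ratio test of edgeR. By this rule 32 of the 58 were higher and 16 were lower after TGFβ1, and 10 did not pass. Over all genes tested, 37.6% were higher and 38.0% lower, 75.6% together, against 55.2% and 27.6% of the 58. The shares over all genes tested are also the reference for the counts given for each family below. The median log2 fold change was 0.30 over the 58 genes and -0.01 over all genes tested. Of the 58 genes, 12 rose with a log2 fold change of at least 1 and 4 fell by as much, where 10.9% and 6.56% of all genes tested did so. In 45 of the 58 genes the libraries of the 2 groups did not overlap, against 69.8% of all genes tested. The TGFβ1-treated libraries lay above in 30 and below in 15, against 34.7% and 35.1% of all genes. Of the tested genes, 4 had a mean under 10 counts in 1 group and passed the filter on low counts only through the group in which they were high. These were Hs3st6, Mgat5b, Galnt16 and B3gnt7, and they had to differ. Chst7, with 5 to 18 counts in untreated and 18 to 42 in treated libraries, also passed only through the treated group. Without the first 4, 54 genes remain, Chst7 among them, of which 29 were higher and 15 lower. The 12 that rose by at least 1 include Hs3st6, Mgat5b, Galnt16 and Chst7, and the 4 that fell include B3gnt7. All of them are also among the 45 genes without overlap, so these counts follow in part from the filter.

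**Figure D1:**
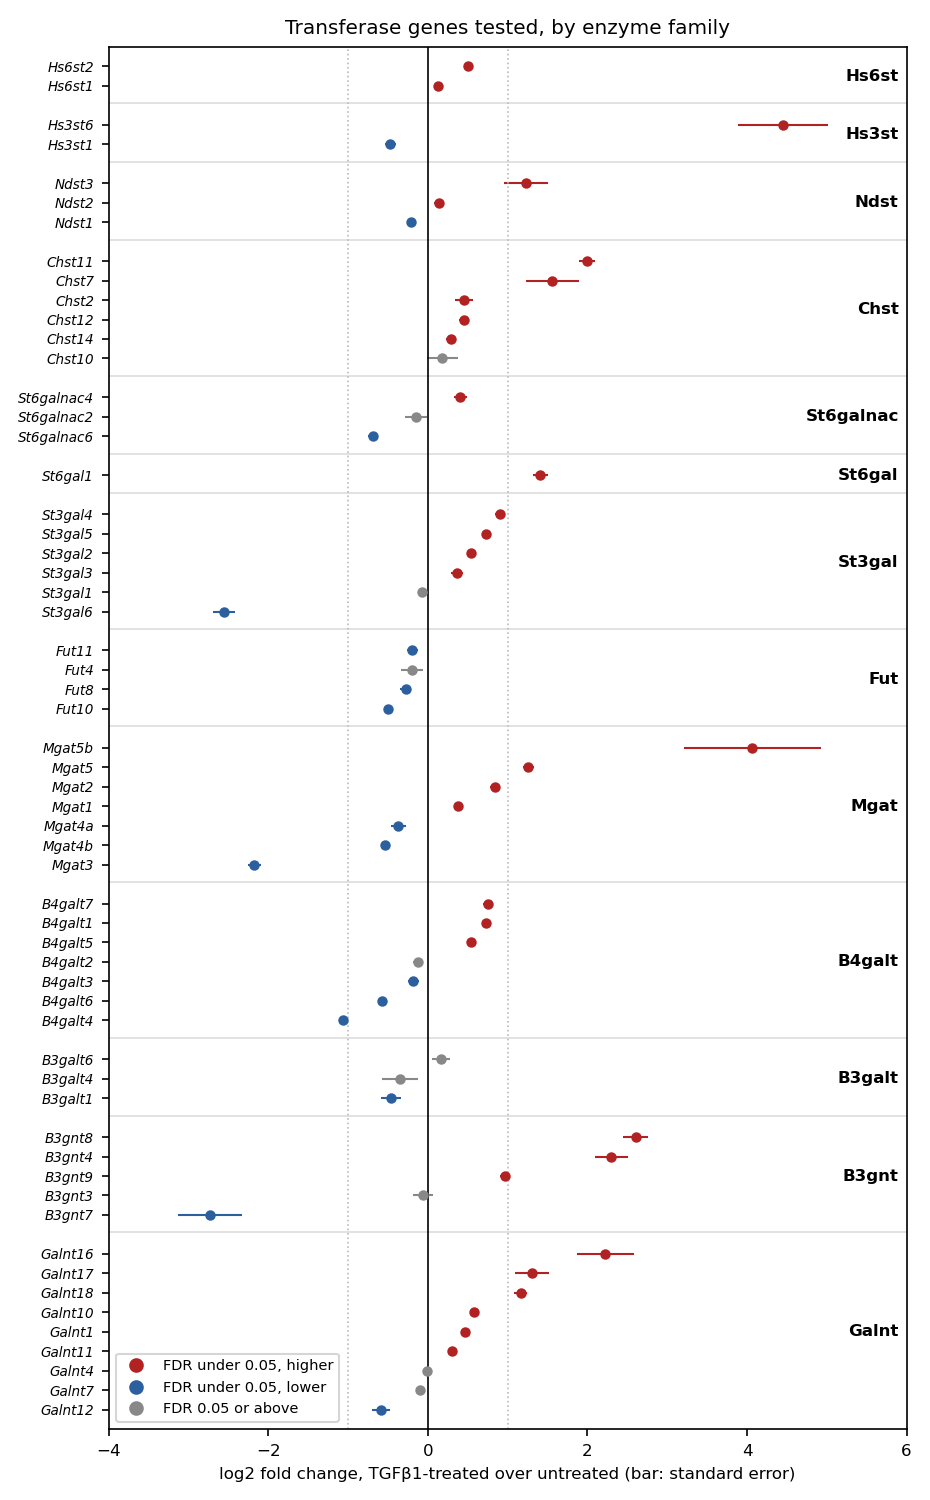
Log2 fold change (x axis, TGFβ1-treated over untreated) of the 58 genes tested, grouped by enzyme family, with the standard error as a bar and the call by edgeR's likelihood ratio test as the colour. Rises and falls occurred within most families, from -2.73 for B3gnt7 to 4.45 for Hs3st6, and no Fut gene passed the test as higher. B3gnt7 and Hs3st6 each passed the filter only through the group in which they were high.

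Of the 43 genes below the filter, 14 had 0 counts in all 8 libraries and none exceeded 19 counts in a library. For some of them the annotation limits what a low count means. Galnt2 had 0 to 19 counts, and 90.0% of its exonic bases also belong to Gm20388 on the same strand, a readthrough gene that the count table lists as Galnt2l with 0 counts. B3gnt2 had 1 to 7 counts, and 65.5% of its exonic bases are shared on the same strand with Gm28048 and Gm12057. Reads on such bases cannot be assigned to 1 gene, so low expression of Galnt2 and B3gnt2 cannot be read from these counts. A second identifier with the symbol St6galnac2 had 1 to 7 counts and overlaps 22.8% of its exonic bases with the first. Galnt6os, an antisense RNA that the symbol rule also takes in, had no counts.

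In the Galnt family, which includes the enzymes that start mucin-type O-glycans, 9 of 19 genes were tested, 6 were higher and only Galnt12 was lower. The 6 higher include Galnt16, which passed the filter only through the treated group. Galnt1, the most abundant per kilobase of the 9 tested genes, which do not include Galnt2, was at 138, 145, 146 and 141 CPM in untreated libraries and at 194, 201, 192 and 199 after TGFβ1. It rose 1.38-fold (log2 fold change 0.46 with a standard error of 0.0397, FDR = 8.22e-31 in edgeR). Galnt18 (chromosome 7, 111471661 to 111779977, GRCm38) was at 18.4, 20.6, 18.6 and 18.2 CPM in untreated and 40.6, 37.6, 43.3 and 48.4 in TGFβ1-treated libraries, a log2 fold change of 1.16 (standard error 0.0810). The lowest treated library therefore lay well above the highest untreated one. Galnt18 went from 10.8% to 18.1% of the CPM per kilobase summed over the family's tested genes, while Galnt1 went from 37.9% to 39.1%.

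Galnt17 and Galnt16 rose from low levels. Galnt17 was at 0.655 to 1.37 CPM in untreated and 2.02 to 2.80 in TGFβ1-treated libraries (log2 fold change 1.30, standard error 0.214). Galnt16 was at 0.152 to 0.376 CPM in untreated and 0.776 to 1.51 in treated libraries (log2 fold change 2.22, standard error 0.359). Since it passed the filter only through the treated group, it had to differ. Galnt10 and Galnt11 rose by 0.58 and 0.31 on the log2 scale, and Galnt12 had a log2 fold change of -0.59. Galnt4 and Galnt7 were not called (log2 fold changes -0.01 and -0.10), although Galnt7 was called lower without untreated replicate 1 (FDR = 0.0187 from edgeR). Of the genes below the filter, Galnt6 had 0 or 1 count in untreated and 6 to 10 in treated libraries, and Galnt15 had 0 to 2 and 3 to 6. Both were called higher when no filter was applied (FDR = 3.07e-08 and 0.00493 in edgeR).

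Several, but not all, B3gnt enzymes add the N-acetylglucosamine of poly-N-acetyllactosamine chains. Of the 5 genes of the family tested, 3 were higher and 1 was lower. The lower one, B3gnt7, passed the filter only through the untreated group. B3gnt8 (chromosome 7, 25626654 to 25635100), which extends branched N-glycans, was at 1.59, 1.31, 1.35 and 0.913 CPM in untreated libraries and at 7.30, 7.55, 8.56 and 8.19 after TGFβ1. It rose 6.07-fold (log2 fold change 2.60 with a standard error of 0.161, FDR = 1.47e-71 in edgeR). Its exons overlap those of Bckdha on the opposite strand over 18.1% of their bases. Bckdha, at 37.7 CPM in untreated cells, fell by 0.25 on the log2 scale. It is not known whether strand was used in counting, so the level of B3gnt8 depends on that setting. B3gnt9, the most abundant per kilobase of the tested genes, without B3gnt2, was at 32.0, 29.6, 30.5 and 30.2 CPM in untreated and 60.1, 55.2, 57.1 and 65.9 in treated libraries, a log2 fold change of 0.96 (standard error 0.0646). B3gnt9 held 83.0% of the CPM per kilobase summed over the 5 tested genes in untreated and 81.2% in TGFβ1-treated cells, a share that leaves out B3gnt2.

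B3gnt4 was at 0.482, 0.939, 1.05 and 0.811 CPM in untreated and 4.11, 3.41, 4.33 and 4.54 in treated libraries (log2 fold change 2.30, standard error 0.204). However, 93.2% of its exonic bases lie opposite exons of Diablo, and it is not known whether strand was used in counting, so the origin of these reads is uncertain. Diablo itself fell by 0.44 on the log2 scale. B3gnt7, which builds keratan sulfate chains, fell from 21 to 36 counts in untreated libraries to 0 to 9 in TGFβ1-treated libraries (log2 fold change -2.73, standard error 0.398). It passed the filter only through the untreated group and so had to differ. B3gnt3 was not called (log2 fold change -0.06, FDR = 0.670 from edgeR).

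Among the galactosyltransferases, all 7 B4galt genes and 3 of 5 B3galt genes were tested, and the B4galt genes were divided, with 3 higher and 3 lower. B4galt1, which adds most galactose to N-glycans, was at 233, 246, 248 and 244 CPM in untreated and 413, 413, 392 and 393 in TGFβ1-treated libraries. It rose 1.66-fold (log2 fold change 0.73 with a standard error of 0.0401, FDR = 2.93e-72 in edgeR). B4galt4 (chromosome 16, 38742264 to 38769049), which acts on sulfated N-acetylglucosamine of keratan sulfate, was at 86.3, 89.9, 90.4 and 87.1 CPM and fell to 42.8, 41.1, 43.7 and 42.2. This was a log2 fold change of -1.06 (FDR = 2.00e-111 in edgeR, standard error 0.0471). B4galt1 went from 45.3% to 60.5% and B4galt4 from 21.8% to 8.39% of the family's summed CPM per kilobase.

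B4galt5 and B4galt6 both make lactosylceramide, the base of most glycosphingolipids, and moved in opposite directions. B4galt5 rose by 0.54 and B4galt6 had a log2 fold change of -0.57, so the ratio of B4galt5 to B4galt6 counts went from 1.18 to 2.56. The log2 ratio was 0.24 ± 0.101 in untreated and 1.36 ± 0.126 in TGFβ1-treated libraries (SD, n = 4), without overlap. B4galt7, which adds the first galactose of the linker that joins glycosaminoglycans to proteins, rose by 0.75. B4galt3 fell by 0.18 on the log2 scale. B4galt2 was not called (log2 fold change -0.13, FDR = 0.0509 from edgeR), and it was called lower without TGFβ1 replicate 3 or 4 (FDR = 0.0401 and 0.0415). Ccdc24 covers 28.2% of its exonic bases on the same strand. B3galt6, which adds the next galactose of the linker, was at 6.69 to 9.11 CPM in untreated and 7.74 to 9.98 in treated libraries, and these ranges overlapped (log2 fold change 0.16, FDR = 0.188 from edgeR). B3galt1 had a log2 fold change of -0.47 and was lower. B3galt4, which makes the ganglioside GM1, was not called (log2 fold change -0.35, FDR = 0.150 from edgeR), but was lower without untreated replicate 4 (FDR = 0.0136).

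**Figure D2:**
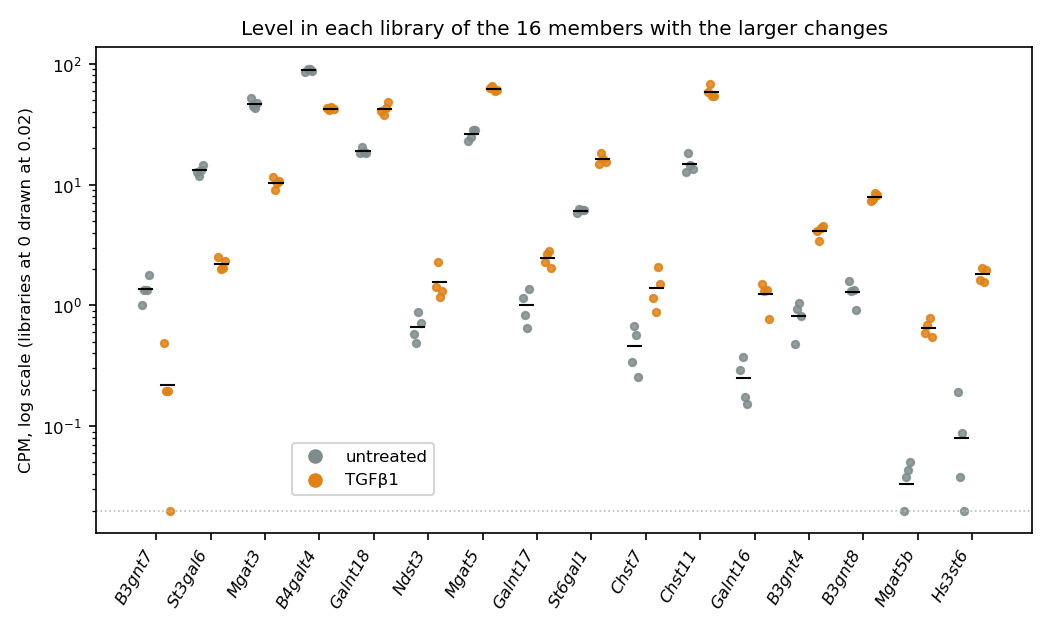
CPM on a log scale (y axis) in each untreated and TGFβ1-treated library for the 16 genes with an FDR under 0.05 and an absolute log2 fold change of at least 1, ordered by log2 fold change, with a line at each group's mean and libraries without counts drawn on the dotted line. In these 16 genes, which were chosen for their change, the 2 groups do not overlap, and the levels run from under 0.1 CPM for Mgat5b in untreated cells to about 90 CPM for B4galt4.

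All 7 of the tested Mgat genes, of 11 in the family, were called, 4 higher and 3 lower, where 75.6% of all genes tested were called. The 4 higher include Mgat5b, which passed the filter only through the treated group. Mgat1 begins hybrid and complex N-glycans, Mgat2 opens the second antenna, Mgat4a, Mgat4b and Mgat5 add further branches, and Mgat3 adds the bisecting N-acetylglucosamine, which hinders later branching. Mgat3 (chromosome 15, 80173721 to 80215519) was at 51.6, 44.8, 43.0 and 47.2 CPM in untreated libraries and at 11.5, 8.96, 10.3 and 10.6 after TGFβ1. It fell to 22.1% of the untreated level (log2 fold change -2.18 with a standard error of 0.0826, FDR = 4.44e-155 in edgeR). Mgat5 (chromosome 1, 127205015 to 127488336) was at 23.0, 24.6, 28.4 and 28.3 CPM and rose to 63.3, 65.8, 59.0 and 61.0. Its log2 fold change was 1.26 (standard error 0.0695, FDR = 1.81e-71 from edgeR).

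Every untreated library held more Mgat3 than Mgat5 reads, and every TGFβ1-treated library held fewer. The log2 ratio of Mgat3 to Mgat5 counts was 1.16, 0.87, 0.60 and 0.74 in untreated and -2.46, -2.87, -2.51 and -2.53 in treated libraries, a difference of -3.44. Mgat2 was at 77.9, 70.8, 78.1 and 78.4 CPM in untreated and 128, 129, 140 and 149 in treated libraries (log2 fold change 0.84, standard error 0.0587), and Mgat1 rose by 0.38. Mgat4b and Mgat4a both fell, by 0.54 and 0.37 on the log2 scale. The log2 ratio of Mgat4a to Mgat4b was -3.14 to -2.86 in untreated and -2.97 to -2.60 in treated libraries, which overlapped. Mgat5b, a relative of Mgat5 known mainly from brain, had 3 counts in all untreated and 55 in all treated libraries. This is a ratio of 19.4 with an exact 95% interval from 6.30 to 96.9 for counting error only. As Mgat5b passed the filter only through the treated group, it had to differ. Per kilobase, Mgat2 went from 32.3% to 49.5% of the family's sum, Mgat4b from 32.2% to 18.9% and Mgat3 from 11.1% to 2.10%.

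**Figure D3:**
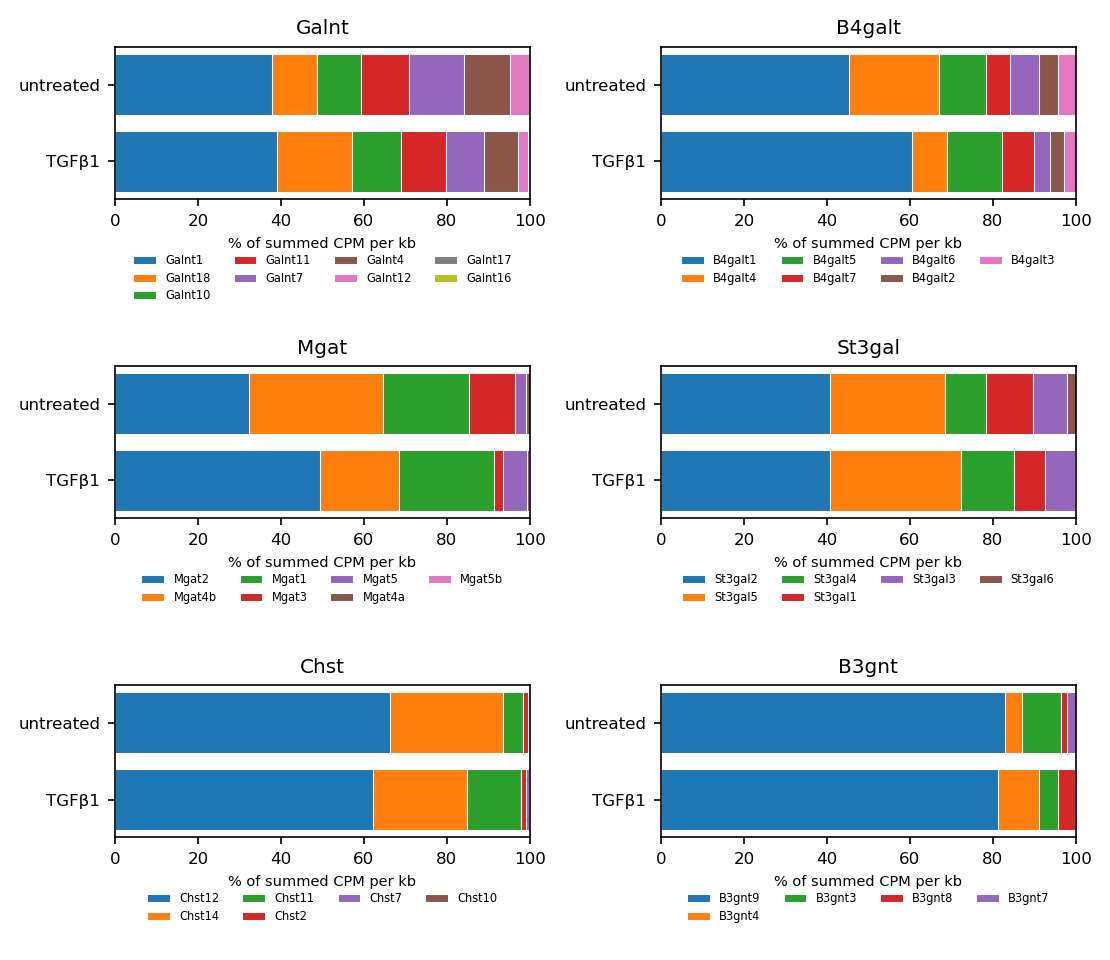
Share of each tested gene (coloured segments) in its family's summed CPM per kilobase of exon (x axis, percent), from group means, in untreated and TGFβ1-treated cells for 6 families. The segment of Mgat3 shrinks from 11.1% to 2.10%, that of B4galt4 from 21.8% to 8.39%, and that of Chst11 widens from 4.81% to 13.1%.

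Of 8 fucosyltransferase genes, 4 were tested, and 3 were lower and none higher. Fut10, the most abundant, was at 76.0, 75.5, 81.2 and 81.4 CPM in untreated and 57.1, 58.3, 53.5 and 52.9 in treated libraries. Its log2 fold change was -0.50 (standard error 0.0524, FDR = 3.74e-21 from edgeR). Fut8, which adds the core fucose of N-glycans, had a log2 fold change of -0.28, and Fut11 had one of -0.19, which was not called without TGFβ1 replicate 3 (FDR = 0.0543 from edgeR). Fut4, which makes Lewis x, was not called (log2 fold change -0.20, FDR = 0.169). Fut7, needed for the sialyl Lewis x of selectin ligands, had at most 3 counts in any library. Fut1, which makes the H antigen, did not pass the filter, with 9 to 16 counts in untreated and 1 to 11 in treated libraries. The 11 were in TGFβ1 replicate 4, and its log2 fold change was -1.64 without a filter and -2.91 without that library.

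Sialyltransferases that work on galactose were mostly higher, except for St3gal6. Of the 6 St3gal genes, 4 were higher, St3gal6 was lower and St3gal1 was not called (log2 fold change -0.08, FDR = 0.137 from edgeR), except as lower with total-count scaling (FDR = 0.00418). St3gal6 (chromosome 16, 58468125 to 58524243), which places α2,3-linked sialic acid on N-acetyllactosamine, was at 12.8, 11.7, 13.3 and 14.5 CPM in untreated and 2.49, 2.00, 2.02 and 2.33 in TGFβ1-treated libraries. It fell to 17.0% of the untreated level (log2 fold change -2.56 with a standard error of 0.137, FDR = 1.99e-89 in edgeR). Exons of Dcbld2 lie opposite 26.0% of its exonic bases, and Dcbld2, at 403 CPM in untreated cells, rose by 0.14 on the log2 scale. Without strand in the counting, reads from these bases could belong to either gene, so the level of St3gal6 depends on that setting. St3gal4, which acts on the same acceptor, rose by 0.90 from a mean of 28.4 to 53.0 CPM.

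St3gal2, the most abundant sialyltransferase here, works on core 1 O-glycans and gangliosides. It was at 206, 197, 204 and 205 CPM in untreated and 292, 286, 302 and 302 in treated libraries, a log2 fold change of 0.54 (standard error 0.0389). St3gal5, which makes the ganglioside GM3, and St3gal3 rose by 0.73 and 0.37. St6gal1 (chromosome 16, 23224740 to 23360350), the enzyme of α2,6-linked sialic acid on N-glycans, was at 5.78, 6.23, 6.16 and 6.19 CPM in untreated and 14.9, 18.1, 16.4 and 15.4 in treated libraries. It rose 2.66-fold (log2 fold change 1.41 with a standard error of 0.0972, FDR = 2.98e-48 in edgeR). The ratio of St3gal4 to St6gal1 counts went from 4.64 to 3.27, with log2 ratios of 2.02 to 2.30 in untreated and 1.63 to 1.79 in treated libraries.

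The St6galnac family, which adds α2,6-linked sialic acid to N-acetylgalactosamine or to gangliosides, had 3 of 7 genes tested. St6galnac6 was at 32.1, 29.1, 29.4 and 30.8 CPM in untreated and 19.6, 17.6, 18.7 and 19.4 in treated libraries, a log2 fold change of -0.69 (standard error 0.0630). St6galnac4 rose by 0.41 on the log2 scale and St6galnac2 was not called (log2 fold change -0.15, FDR = 0.338 from edgeR). St6gal2 had 0 counts in every library.

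Among the Chst sulfotransferases 6 of 14 genes were tested, and 5 were higher and none lower. The 5 higher include Chst7, which passed the filter only through the treated group. Chst11 (chromosome 10, 82985498 to 83195900) and Chst12 add sulfate at carbon 4 of the N-acetylgalactosamine in chondroitin. Chst11 was at 12.8, 18.1, 14.6 and 13.4 CPM in untreated libraries and at 58.3, 67.7, 54.5 and 54.4 after TGFβ1. It rose 3.97-fold (log2 fold change 1.99 with a standard error of 0.101, FDR = 2.42e-83 in edgeR). Chst12, the most abundant of the family, was at 90.5, 89.3, 82.4 and 84.7 CPM in untreated and 120, 106, 121 and 128 in treated libraries, and its log2 fold change was 0.45 (standard error 0.0582). Chst14, the corresponding enzyme of dermatan sulfate, rose by 0.29.

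Chst7 and Chst3 add sulfate at carbon 6 of the same sugar and were scarce. Chst7 was at 0.337, 0.676, 0.568 and 0.254 CPM in untreated and 1.14, 0.876, 2.07 and 1.51 in treated libraries (log2 fold change 1.56, standard error 0.328). This rise follows in part from the filter, which Chst7 passed only through the treated group. Chst3 had 5 to 14 counts in untreated and 6 to 14 in treated libraries and was not tested. Chst13, another chondroitin 4-O-sulfotransferase, had 0 counts in untreated and 1 to 3 in treated libraries, and was called higher when no filter was applied (FDR = 0.00224 in edgeR). Chst2, which sulfates N-acetylglucosamine and contributes to ligands of L-selectin, rose by 0.45 from a mean of 4.61 to 6.27 CPM, and Chst4, its counterpart in high endothelial venules, had at most 1 count. Chst10, which makes the HNK-1 epitope, was not called (log2 fold change 0.18).

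Among the heparan sulfate enzymes 3 Ndst, 2 Hs6st and 2 Hs3st genes were tested. Ndst enzymes replace acetyl groups by sulfate and start the modification of the chain. Ndst1, at 150, 155, 155 and 159 CPM in untreated libraries, fell to 134, 128, 134 and 135, a log2 fold change of -0.22 (standard error 0.0410). Ndst2 rose by 0.14 on the log2 scale, which was not called without untreated replicate 4 (FDR = 0.0539 from edgeR) or TGFβ1 replicate 1 (FDR = 0.0786), nor with total-count scaling (FDR = 0.230). The ratio of Ndst1 to Ndst2 counts went from 4.69 to 3.66. Ndst3 was at 0.488 to 0.873 CPM in untreated and 1.18 to 2.29 in treated libraries (log2 fold change 1.22, standard error 0.276).

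Hs6st2 was the most abundant sulfotransferase of the 58 genes per kilobase and adds sulfate at carbon 6 of glucosamine. It was at 480, 474, 444 and 416 CPM in untreated and 622, 605, 680 and 668 in treated libraries, a log2 fold change of 0.50 (FDR = 1.93e-19 in edgeR, standard error 0.0549). Hs6st1 had a log2 fold change of 0.13 (FDR = 0.0205). That call was lost without untreated replicate 2 or 3 (FDR = 0.0540 and 0.0909 from edgeR), without TGFβ1 replicate 3 or 4 (FDR = 0.0987 and 0.0826) and with total-count scaling (FDR = 0.272). The log2 ratio of Hs6st1 to Hs6st2 counts was -2.31 to -2.13 in untreated and -2.63 to -2.60 in TGFβ1-treated libraries.

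Hs3st enzymes add the rare 3-O-sulfate that creates binding sites such as that for antithrombin, which Hs3st1 makes. Hs3st1 was at 18.6, 18.2, 16.8 and 17.3 CPM in untreated and 12.7, 12.7, 12.8 and 13.0 in treated libraries, a log2 fold change of -0.47 (standard error 0.0729). Hs3st6 (chromosome 17, 24752988 to 24758684) had 7 counts in all untreated and 155 in all treated libraries. The ratio was 23.4, with an exact 95% interval from 11.1 to 59.2 for counting error only. Hs3st6 passed the filter only through the treated group and so had to differ. The other Hs3st genes had at most 5 counts in any library.

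**Figure D4:**
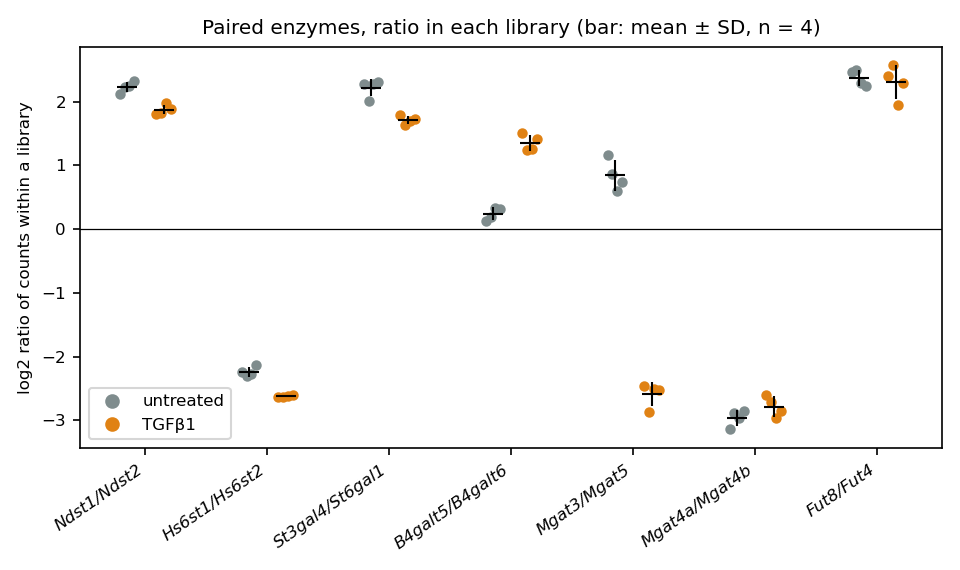
Log2 ratio of counts (y axis) of 2 enzymes that transfer the same sugar or sulfate, in each untreated and TGFβ1-treated library, with mean and SD (n = 4 libraries). Mgat3 over Mgat5 goes from a mean of 0.84 to -2.59 and B4galt5 over B4galt6 from 0.24 to 1.36, while Fut8 over Fut4 (2.37 and 2.30) and Mgat4a over Mgat4b overlap between groups.

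Since genes of the same family moved in opposite directions, the 250 bases before the start of each gene in RefSeq (GRCm38.p6) were searched for 3 short motifs on both strands. A window was listed for 77 of the symbols, 44 of them tested. CAGAC, the core of SMAD binding sites, stood in 15 of 36 windows of higher genes (41.7%) and in 2 of 16 windows of lower genes (12.5%), against 42.2% of all 32851 windows. TGANTCA, the AP-1 motif, stood in 2 of 36 and 1 of 16 (5.56% and 6.25%, against 6.75% of all windows). The GC box GGGCGG stood in 20 of 36 and 6 of 16 (55.6% and 37.5%, against 32.7%). Several windows can belong to 1 gene, the motifs were counted without a test, and a match is not a binding site. The 36 and 16 windows belong to 27 and 10 genes. All 32851 windows belong to 27025 genes, tested here or not, so their percentages are not limited to genes expressed in these cells. The windows of 2 genes that rose, Chst11 and B3gnt8, and of 2 that fell, B4galt4 and St3gal6, are shown so that both directions can be read side by side. In each direction they ranked highest by likelihood ratio among genes that had a listed window and an absolute log2 fold change of at least 1. CAGAC, or GTCTG on the other strand, is in capitals, and sequences run 5′ to 3′ on the strand of the gene.
Chst11 (chr10:82985247-82985496, plus strand): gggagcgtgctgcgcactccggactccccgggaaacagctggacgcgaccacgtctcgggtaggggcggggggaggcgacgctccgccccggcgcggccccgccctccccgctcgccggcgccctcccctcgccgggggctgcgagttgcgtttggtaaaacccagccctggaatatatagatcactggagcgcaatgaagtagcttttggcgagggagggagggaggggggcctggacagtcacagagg
B3gnt8 (chr7:25627374-25627623, plus strand): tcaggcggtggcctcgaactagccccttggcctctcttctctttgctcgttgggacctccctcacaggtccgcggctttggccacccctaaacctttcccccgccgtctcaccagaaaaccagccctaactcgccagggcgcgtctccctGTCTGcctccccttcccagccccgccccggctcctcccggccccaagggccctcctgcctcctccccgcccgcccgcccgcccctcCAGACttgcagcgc
B4galt4 (chr16:38742009-38742258, plus strand): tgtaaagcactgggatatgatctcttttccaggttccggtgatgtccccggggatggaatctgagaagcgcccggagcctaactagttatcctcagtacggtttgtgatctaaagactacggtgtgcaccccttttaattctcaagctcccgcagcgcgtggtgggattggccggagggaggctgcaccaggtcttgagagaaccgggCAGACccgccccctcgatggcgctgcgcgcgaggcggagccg
St3gal6 (chr16:58524254-58524503, minus strand): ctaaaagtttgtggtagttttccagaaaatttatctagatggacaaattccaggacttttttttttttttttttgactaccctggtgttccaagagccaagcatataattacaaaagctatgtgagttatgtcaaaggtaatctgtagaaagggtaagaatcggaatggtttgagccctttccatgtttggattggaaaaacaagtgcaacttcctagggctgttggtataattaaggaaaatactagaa
The window of B3gnt8 holds 2 matches of CAGAC and that of B4galt4 holds 1. Those shown for Chst11 and St3gal6 hold none. The GC box occurs 3 times in the window of Chst11, 5 times in that of B3gnt8, once in that of B4galt4 and not in that of St3gal6. St3gal6 has 2 listed windows, and the one nearer to the GENCODE start is shown. The other, 817 bases from that start, holds no CAGAC and 4 GC boxes. The window of B3gnt8 starts from a RefSeq start that lies 970 bases from the GENCODE gene start, against at most 10 bases for the other 3.

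Genes that supply or share the same pathways were followed with lists that hold none of the 101 genes. As reference, 37.6% of all genes tested were higher and 38.0% lower, 75.6% together. A list in which most genes were called does not stand out by that count. Of 16 genes for the glycosaminoglycan linker and chain polymerases 14 were tested, with 7 higher and 5 lower (median log2 fold change 0.32). Ext1, which polymerizes heparan sulfate, rose by 1.03 from 168 ± 7.14 CPM to a level of 342 ± 12.2 CPM (mean and SD over 4 libraries), while its partner Ext2 had a log2 fold change of -0.40. Chpf2, a chondroitin polymerase subunit, rose by 1.27. Of 7 genes for epimerases, 2-O-sulfotransferases and endosulfatases, 4 were higher and 2 lower. The endosulfatases Sulf1 and Sulf2, which remove 6-O-sulfate from heparan sulfate outside the cell, rose by 1.20 and 1.23, Sulf2 from 324 ± 13.2 to 761 ± 19.0 CPM. Ust, which sulfates uronic acid in chondroitin and dermatan sulfate, rose by 1.21.

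In O-glycan core and branching, 5 of 8 genes were tested, with 1 higher and 3 lower. Gcnt1, which makes the core 2 branch, fell from 20.4 ± 1.54 to 8.50 ± 0.761 CPM (log2 fold change -1.27). Of 9 N-glycan trimming genes, 3 were higher and 4 lower, and their median log2 fold change was 0.02. Of 6 genes for the sulfate donor, 4 were higher and 2 lower. The sulfate transporter Slc26a2 rose by 1.17. Of the enzymes that make the donor PAPS, Papss1 was lower (log2 fold change -0.44) and Papss2 was higher (0.11). All 18 nucleotide sugar synthesis genes were tested, with 11 higher and 3 lower, where 37.6% and 38.0% of all genes tested were. Gne, the first enzyme of sialic acid synthesis, rose by 1.39 from 31.5 ± 2.16 to 82.4 ± 3.38 CPM. Galt rose by 1.07. Of 6 nucleotide sugar transporters, 5 were higher and 1 lower, and Slc35d1 and Slc35a2, the latter for UDP-galactose, rose by 1.22 and 1.09.

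**Figure D5:**
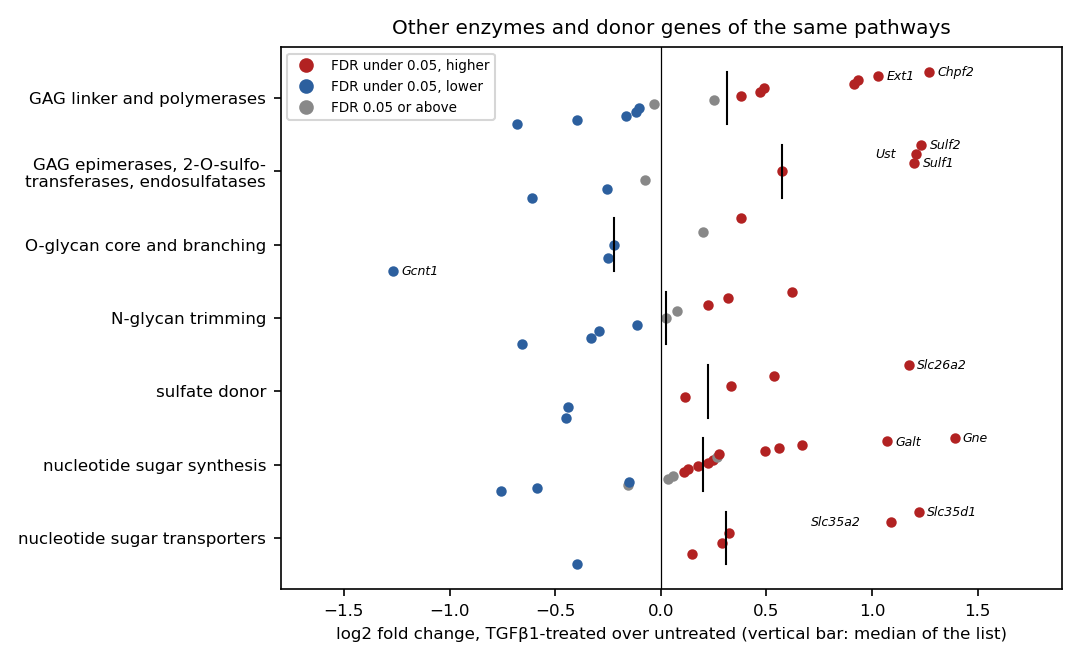
Log2 fold change (x axis) of each tested gene in 7 lists of other enzymes, donors and transporters of the same pathways, coloured by the call of edgeR's likelihood ratio test, with the median of each list as a vertical bar. Genes with an absolute log2 fold change of at least 1 are named, from Gcnt1 at -1.27 to Gne at 1.39.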

How the data were processed

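The authors deposited raw counts of reads per gene, without normalization, for 55471 genes in 8 libraries. Per the labels, single-end reads of 75 bases were sequenced, and the submitters' processing notes name GRCm38, STAR 2.7.3a and featureCounts 1.5.1. The annotation release and the strand setting are not given in the sources used here. Libraries were grouped by their titles. With edgeR 4.0.16 (R 4.3.3), low genes were removed by filterByExpr, libraries scaled by TMM, and groups compared with glmFit and glmLRT, the test named in the study's methods, with Benjamini-Hochberg FDRs over all 13818 genes tested. Log2 fold changes carry a prior count of 0.125. Exon lengths, positions and overlaps came from GENCODE M21, which matched 55144 identifiers and all 101 of the genes described. Levels per kilobase use merged exons.

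Given library by library were genes with an FDR under 0.05 and an absolute log2 fold change of at least 1 and the most abundant gene of each family per kilobase, the lowest-level ones as ranges or counts. Members and lists were chosen with earlier results of these data known. The script was tested on simulated data. Libraries of a group differed by 2.37 to 7.84 in chi-square per degree of freedom, above sampling noise. The alternatives were edgeR's quasi-likelihood test, DESeq2 1.42.0, DESeq2 size factors, total counts, other filters, a prior count of 2, a replicate block and leaving out each library. Intervals and floors cover counting error only.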

Additional observations from a re-analysis of the deposited data

Results flagged for a closer look

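In 4 of 56 groups of 4 libraries examined, 1 library stood apart from the other 3 by Dixon's criterion, which flags about 1 group in 20 by chance. In untreated libraries, Galnt18 was at 20.6 CPM in replicate 2 against 18.2 to 18.6 in the others. Mgat2 was at 70.8 CPM in the same untreated library against 77.9 to 78.4. St6gal1 was at 5.78 CPM in untreated replicate 1 against 6.16 to 6.23. After TGFβ1, Ndst1 was at 128 CPM in replicate 2 against 134 to 135. In each case the gap was smaller than the distance between the groups, and the call was the same without each library in turn.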

How the results depend on the processing

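The counts of 32 higher and 16 lower genes stayed within 1.5 times under every alternative run. They were 32 and 17 with edgeR's quasi-likelihood test, 32 and 16 with DESeq2, 32 and 16 with DESeq2 size factors in edgeR, and 30 and 19 with total counts, which moved the median of all genes from -0.01 to -0.07 on the log2 scale. Without a filter on low counts 87 of the 101 genes were tested, with 34 higher and 18 lower, and with a minimum of 1 CPM, required of 4 or more libraries, 55 were tested, with 29 and 16. Leaving out each library in turn gave 31 to 32 higher and 16 to 18 lower. With the replicate block the counts were 31 and 16, and Hs6st1 was the call lost. The replicate numbers were not treated as pairing samples, since the deviations of same-numbered libraries from their group means correlated at -0.193 to -0.0336. Hs6st1 and Ndst2 were also not called with total counts or without a filter, and Galnt7, St3gal1 and B4galt2 were called lower with total counts (FDR = 0.00311, 0.00418 and 0.00272 in edgeR). All 445 refits of the 28 genes named by rule kept their direction and their side of the threshold. Chst7, Galnt16 and Mgat5b could not be tested with the filter of 1 CPM. Without a filter, 5 genes outside the main test were called, Galnt6, Galnt15, Chst13 and Mgat4e (0 counts in untreated and 0 to 2 in treated libraries, FDR = 0.0430 in edgeR) as higher and Fut1 as lower. These calls rest on at most 16 counts in a library. Overlapping annotation limits Galnt2, B3gnt2 and, through the unknown strand setting, B3gnt4, B3gnt8 and St3gal6. Exons of other genes also lie opposite 16.5% of the exonic bases of B3gnt9, 14.5% of B4galt3, 14.1% of St3gal4 and 12.6% of B3gnt7.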

Other observations

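The α2,8-sialyltransferases, which make polysialic acid and complex gangliosides, were at or near 0. None of the 6 St8sia genes was tested, and their summed level was 0.0873 to 0.434 CPM in untreated and 0 to 0.0541 CPM in TGFβ1-treated libraries. St8sia4 had at most 9 counts in an untreated library and 0 in every TGFβ1-treated library.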
